A study of Drosophila melanogaster with 15 samples.

Results

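The comparison covered the 6345 genes with a FlyBase gene ID that had an isoform in both adult heads and adult ovaries, out of 11848 such genes found in any tissue of the study. Heads held 11280 of these genes and ovaries 6690. No measured value was used to choose them other than presence in both assemblies. The study read full-length cDNA of wild-type *Drosophila melanogaster* (w1118) on nanopore devices, so that every isoform joins 1 transcription start site (TSS) with 1 poly(A) site. The heads came from 3-day-old flies, for which the study's methods name both sexes in equal shares, and the ovaries from 3-day-old virgin females, with 20 ovaries per replicate. Heads gave 6 libraries, of which 4 were size-selected for cDNA over 3 kb and 2 were not, and ovaries gave 3 libraries, all size-selected. All cDNA was amplified in 14 PCR cycles with an extension time of 12 min.

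The authors pooled the replicates into 1 isoform assembly per tissue, which lists exon positions on dm6 without read numbers. Depth, spread between replicates and tests between tissues could therefore not be computed, and every difference below is a description of 2 assemblies. By the study's account, sequencing was deeper for heads. The shared genes held 47809 isoforms in heads and 12381 in ovaries, with medians of 3 and 1 per gene, and 4338 genes had more isoforms in heads, 1844 equal numbers and 163 fewer. For this reason heads isoforms were drawn at random, gene by gene, to the ovary number, and values named as drawn are the median of 100 such draws, with the range over the draws in parentheses. A draw kept 12056 heads isoforms and equalised isoform number, not depth. In 4189 genes ovaries had 1 isoform, so that 1 heads isoform was set against it. Percentages of the whole assemblies carry 95% Wilson intervals, which cover only the sampling of features. In bulk tissue, fewer cells of a type and less RNA per cell cannot be told apart, and either can keep an isoform out of an assembly.

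The tissue labels were checked against marker genes. All 8 neuronal markers (such as *elav*, *brp* and *Syt1*) had isoforms in heads and none had any in ovaries, and all 7 eggshell and follicle cell markers were in ovaries, of which 1 (*dec*) was also in heads. Of 7 germline markers found by name, ovaries held 5 with 15 isoforms and heads 4 with 6 isoforms, where *bam* and *otu* were in ovaries only, *BicC* was in heads only, and *vas* was in neither assembly. The 5 muscle markers were in both assemblies, with 663 isoforms in heads and 11 in ovaries, and all 5 fat body markers were in heads with 17 isoforms and 4 in ovaries with 4 isoforms. All 5 glial markers were in heads (118 isoforms) and 3, *Gs2*, *moody* and *nrv2*, also in ovaries (4 isoforms), and all 5 photoreceptor markers were in heads (191 isoforms) and *norpA* also in ovaries (2 isoforms). The 4 testis markers were in heads with 47 isoforms, and *bol* was in ovaries with 1. The part of these cell types in the values of either tissue was not tested.

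A gene can give different mRNAs in different tissues at several steps. An alternative promoter changes where RNA polymerase II starts, and with it the first exon, which often lies in the 5′ UTR but can also carry the start codon. Splicing then joins, skips or shortens internal exons, or leaves an intron in the mRNA. Cleavage and polyadenylation set the last exon and the length of the 3′ UTR, which holds sites for RNA-binding proteins and miRNAs. Neural tissue of flies is known for long 3′ UTRs and very short exons, and ovaries for mRNAs that are stored for the egg.

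Because promoters carry part of the difference between the tissues, the starts of genes without a common start site are shown as 30 bases of the RefSeq copy of dm6, 5′ to 3′ on the transcribed strand. Capitals mark the first transcribed base of the assembly, or, where they form the letters TCAGT, the initiator core found within 10 nt of it. In *Ubi-p63E*, which encodes polyubiquitin, *msi*, which encodes the RNA-binding protein Musashi, *Cp110*, which encodes a centriole protein, and *ovo*, a zinc-finger gene needed in the female germline and in the epidermis, they read as follows.
Ubi-p63E, heads-only start with 9 isoforms, chr3L:3903170-3903199, minus strand: atagcagtcgttgccGcaacgctcaacaca
Ubi-p63E, heads-only start with 3 isoforms, chr3L:3902906-3902935, minus strand: cctcattcagccggtcaagTCAGTacgaga
Ubi-p63E, ovary-only start with 5 isoforms, chr3L:3902624-3902653, minus strand: caaaaccaattgacaTttgcagcagcaagt
msi, heads-only start with 24 isoforms, chr3R:25516104-25516133, plus strand: tgtatctttcggacTCAGTttgcctgcgac
msi, heads-only start with 10 isoforms, chr3R:25518309-25518338, plus strand: cgctccttcaccgttAgttaaaaaaaattc
msi, ovary-only start with 4 isoforms, chr3R:25594461-25594490, plus strand: gcgcctaagcagcgaAaacaacatttaagt
Cp110, heads-only start with 5 isoforms, chrX:22482068-22482097, plus strand: aaataccaaaatgtaCcacaccagtttcga
Cp110, ovary-only start with 3 isoforms, chrX:22482343-22482372, plus strand: tacttccaaaagtccGgttatcgatatctg
Cp110, heads-only start with 3 isoforms, chrX:22482579-22482608, plus strand: aagtcgagggctcccTagtgccatcgtcat
ovo, heads-only start with 2 isoforms, chrX:5048259-5048288, plus strand: tgactacctcgaataCagtaagttgcgagc
ovo, ovary-only start with 12 isoforms, chrX:5064219-5064248, plus strand: gtccgttcctttttaCagttacatagcaat

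Each isoform was broken down into its TSS, first exon, internal exons, introns and terminal exon, and a feature was called heads-only or ovary-only when no isoform of the same gene in the other assembly had it (with up to 10 nt allowed at splice sites, 50 nt at starts and 150 nt at poly(A) sites). With heads drawn, the shares of tissue-only features were similar for start sites and first exons. A median of 13.9% of heads TSSs (13.3 to 14.4) were heads-only and 12.7% of ovary TSSs (12.2 to 13.3) were ovary-only. First exons gave 22.4% (21.5 to 23.1) and 21.8% (21 to 22.7). The tissues parted at the introns, where 9.48% (9.11 to 9.79) of heads introns and 14.9% (14.4 to 15.6) of ovary introns had no counterpart. Internal exons lay between, with 15.1% (14.6 to 15.5) heads-only and 17.3% (16.7 to 18.2) ovary-only. Terminal exons differed most often, with 44.5% (43.7 to 45.3) heads-only and 40.8% (40 to 41.5) ovary-only. Their 3′ ends were used as given, and ends that the study discarded as false can be among them.

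By gene, a median of 927 genes had a heads-only TSS and 852 an ovary-only TSS, and 677 had both. First exons of 1 tissue only occurred in 1482 and 1466 genes, internal exons in 1734 and 2040 genes, introns in 1236 and 2488 genes, and terminal exons in 2792 and 2588 genes. A gene counted as having a feature stably when 50% or more of the draws gave it. By this measure 14.2% of the 6345 genes had a heads-only TSS and 12.8% an ovary-only TSS, 27.5% and 34.6% a heads-only and an ovary-only internal exon, and 45.1% and 39.9% a heads-only and an ovary-only terminal exon.

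Against the whole heads assembly, nearly all ovary features had a counterpart. Only 6.14% (5.6 to 6.72) of ovary TSSs, 5.64% of first exons, 2.07% (1.88 to 2.28) of internal exons and 2.34% of introns remained ovary-only, while 21% (20.1 to 21.9) of terminal exons did. In 4385 genes (69.1%) ovaries had no feature of their own, and in 5412 (85.3%) none other than a terminal exon. Heads had no feature of their own in 1412 genes (22.3%), and 1324 genes (20.9%) had no difference in either direction. Most of the first exons, internal exons and introns that drawn heads lacked were thus present in another heads isoform. Genes with an ovary-only TSS fell less, from a drawn median of 852 to 423, and those with an ovary-only terminal exon from 2588 to 1365.

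**Figure D1:**
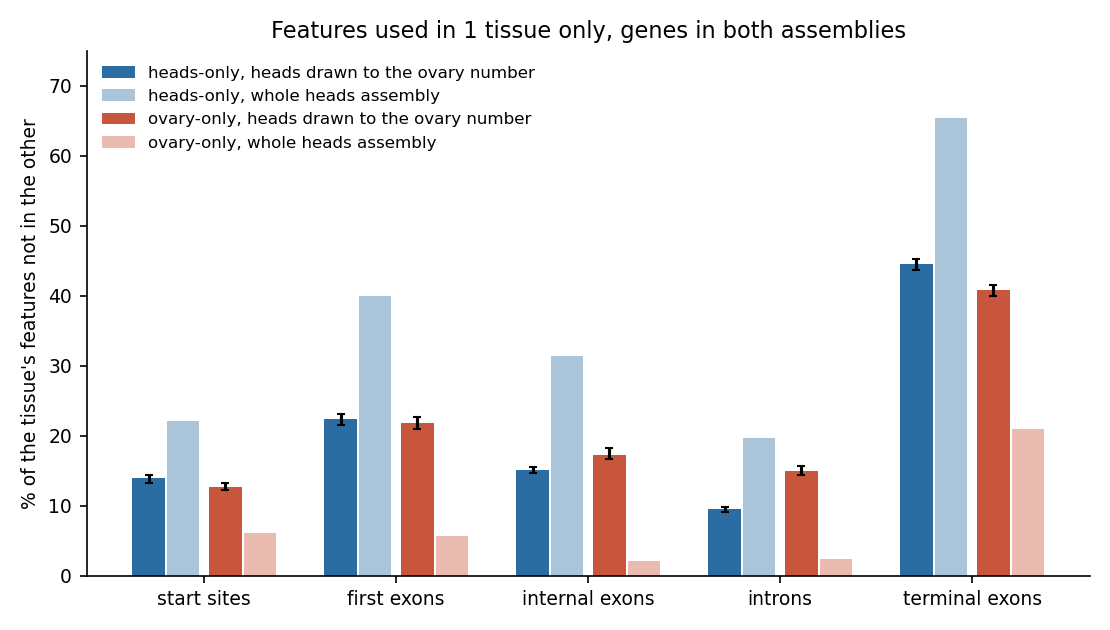
Share of each tissue's features (y axis, percent) not found in the other tissue, for 5 kinds of features. Dark bars are medians of 100 draws of heads isoforms to the ovary number with the range as error bars, and pale bars are the whole assemblies without error bars. Ovary-only shares fall from the dark to the pale bars in every class, for internal exons from 17.3% to 2.07%.

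The embryo assembly of the same study, which did not enter the comparison, gave a further readout. Among genes that embryos also had, 93.7% of the TSSs shared by heads and ovaries were found in embryos, against 40% (37.6 to 42.5) of heads-only and 46% (39.9 to 52.2) of ovary-only TSSs. Shared introns were found there in 94.5%, heads-only introns in 36.8% (35.6 to 38) and ovary-only introns in 24.4% (21 to 28.2). In the Ensembl annotation, 94.6% of shared, 74.9% of heads-only and 72.9% of ovary-only TSSs were present. Terminal exons were annotated least, with 82.8% of shared, 37.8% of heads-only and 38.3% of ovary-only ones. Introns used in 1 tissue only were for the most part known, with 89.2% and 93.4% annotated, and 98.6% of either kind began with GT and ended with AG.

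Unspliced isoforms were set aside for the TSS values of this paragraph and for the motifs below. The reason was that 330 of 640 unspliced isoforms in heads and 193 of 489 in ovaries lay on the strand opposite to the annotated gene. All 46896 and 11807 spliced isoforms lay on the annotated strand. The genes named below for their TSSs were taken from all isoforms, spliced or not. In the 5895 genes with spliced isoforms in both tissues, 6328 TSSs were shared, 1585 were heads-only (20% of heads TSSs, in 1224 genes) and 227 were ovary-only (3.46% of ovary TSSs, in 220 genes). Of the 220 genes, 151 also had a heads-only TSS, 124 shared no TSS, and 104 had 1 spliced isoform in ovaries. Heads-only TSSs lay far from the start used by both tissues. Of 1445 with a shared TSS in the gene, the median distance was 2028 nt, 67% (64.5 to 69.4) were more than 1 kb away and 18.8% (16.9 to 20.9) more than 10 kb. The 100 ovary-only TSSs with a shared TSS lay at a median of 879 nt, with 49% (39.4 to 58.7) more than 1 kb away. In both tissues the extra start was more often downstream, and 41.8% of heads-only and 30% (21.9 to 39.6) of ovary-only TSSs were upstream. The first annotated start codon of the gene lay upstream of 6.74% of shared TSSs, 31.5% (29.2 to 33.8) of heads-only TSSs and 20% (15.3 to 25.7) of ovary-only TSSs.

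Of the 1108 genes with 3 or more isoforms in each tissue, 4 had no TSS in common. All 12 heads isoforms of *Ubi-p63E* started at 3L position 3903184 (9 isoforms) or 3902920 (3), and all 5 ovary isoforms at 3902638, which is 282 nt downstream of the nearer heads site. The ovary site was also used in embryos and the heads sites were not. *msi* showed the largest distance among the 4. Its 34 heads isoforms began at 3R position 25516119 (24) or 25518324 (10), and its 4 ovary isoforms at 25594476, which lies 76152 nt downstream of the nearer heads site within a gene of 25516118 to 25608423. Embryos used both heads sites and not the ovary site.

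The other 2 genes were neighbours on the X chromosome that are transcribed away from each other. *Cp110* had 5 heads isoforms from 22482083 and 3 from 22482594, with the 3 ovary isoforms from 22482358 between them. *CG12576*, a gene of unknown function, had 7 heads isoforms from 22482082 and 1 from 22477596, and its 3 ovary isoforms began at 22482027. The major heads sites of the pair were thus adjacent bases on opposite strands, whereas the ovary sites lay 275 nt and 55 nt further into each gene. The 55 nt of *CG12576* are close to the 50 nt allowed, and with doubled tolerances this gene had a common TSS. All sites but the major heads site of *CG12576* were annotated. Among isoforms of 3 kb or more only, a setting chosen after seeing the data, 0 of 604 eligible genes had no common TSS.

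**Figure D2:**
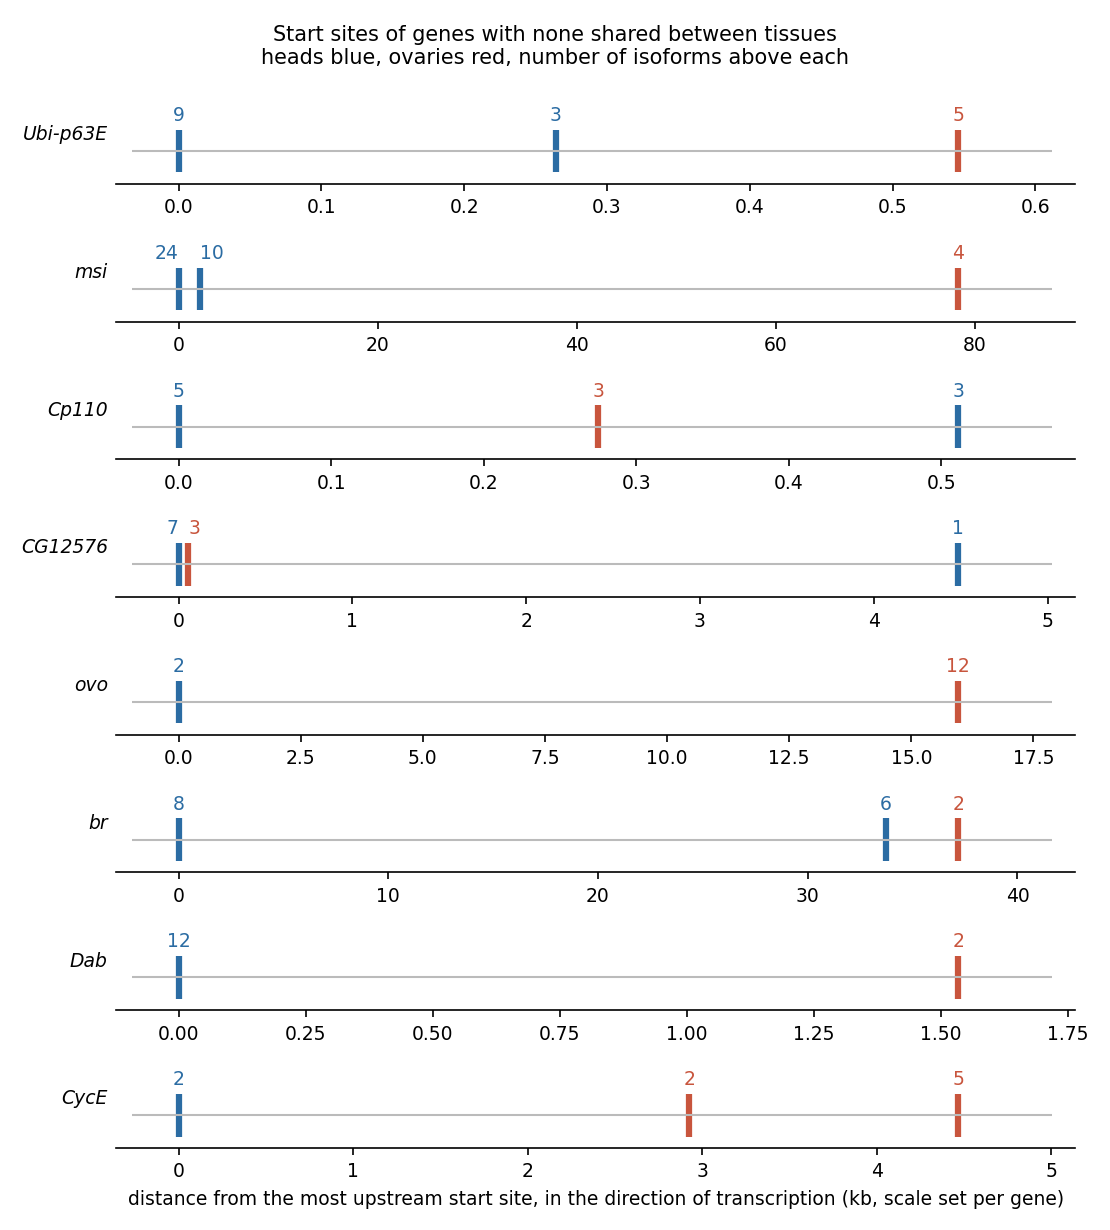
TSSs of 8 genes in which heads and ovaries had none in common, as distance from the most upstream site along the direction of transcription (x axis, kb, its own scale for each gene). Blue bars are heads sites and red bars ovary sites, with the number of isoforms above, and in msi the ovary site with 4 isoforms lies over 70 kb from the heads sites with 24 and 10.

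When 2 isoforms per tissue sufficed, 17 of 2052 genes had no common TSS. These include *mlt*, whose isoforms were all unspliced and lay on opposite strands in heads and ovaries. The genes described from these 17 were chosen after their values were seen. Developmental regulators were among them. *ovo* had 2 heads isoforms from X position 5048274 and 12 ovary isoforms from 5064234, 15960 nt downstream. *br*, a zinc-finger gene of the ecdysone response, had 8 heads isoforms from X position 1575133 and 6 from 1608870, and its 2 ovary isoforms from 1612309, 3439 nt beyond the nearer one. *Dab*, whose product is an adaptor in endocytosis, had 12 heads isoforms from 3L position 16712127 and 2 ovary isoforms from 16713661. *CycE*, the cyclin of S phase entry, had 7 ovary isoforms from 2L positions 15748150 (2) and 15746610 (5), and 2 heads isoforms from 15751078, a position upstream of the annotated gene and within *ND-B17*. The heads transcript of *CycE* therefore began in a neighbouring gene.

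In other genes of this kind the distance was small. The ubiquitin receptor gene of the proteasome *Rpn13* had 8 heads and 2 ovary isoforms from starts 78 nt apart, and *CG8478* 2 and 2 isoforms from starts 104 nt apart. In *CG13375* the 2 ovary isoforms began 175764 nt upstream of the 17 heads isoforms, at an unannotated position within *CG32816*.

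Genes that combined common and tissue-only promoters were led by *mtd*, which encodes a TLDc domain protein. It had 217 heads and 17 ovary isoforms from 9 TSSs, of which 4 were shared, 4 heads-only and 1 ovary-only. The heads-only TSS at 3R position 5350010 alone gave 127 heads isoforms and no ovary isoform, while the shared TSS at 5323847 gave 39 heads isoforms and 12 of the 17 in ovaries. Its ovary-only TSS gave 1 isoform. *Rtnl1*, a reticulon that shapes the endoplasmic reticulum, had 13 of 43 heads isoforms from a heads-only TSS at 2L position 5004928 and 6 of 11 ovary isoforms from the shared TSS at 5006565. *CG2201* had 24 of 34 heads isoforms from a heads-only TSS at 2L position 21618774, and 4 of 5 ovary isoforms from the shared one at 21623627. For *CG43867* the ovary-only TSS (2 of 7 isoforms) was the most upstream of 4, and 21 of 38 heads isoforms began at heads-only TSSs further downstream.

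Several ovary-only sites in this group rested on 1 isoform and lay in another gene. In *DAAM*, which encodes a formin that elongates actin filaments, 1 of 6 ovary isoforms began at X position 1341587 within *CG11409*, upstream of the annotated gene. In *Synj*, the gene of the phosphoinositide phosphatase synaptojanin, 1 of 5 began within *Snp*, and in *CG2201* 1 of 5 began within *Df31*. *SkpA*, a subunit of SCF ubiquitin ligases, had an ovary-only TSS with 2 of 6 isoforms, of which 1 was spliced. *Nadk2* had one with 3 of 5 that lay 88 nt from the heads-only TSS of 9 of 10 heads isoforms. *Nadk1a* had 2 TSSs of each kind. Ovary-only starts with more isoforms were found among genes of the lists described at the end. *cic*, which encodes the HMG-box repressor Capicua, had 15 heads isoforms from 3R position 20252771, whereas its 9 ovary isoforms used that site (4) and one at 20293245 (5). *Act5C*, a cytoplasmic actin gene, had 8 ovary isoforms, 4 from X position 5900862 and 4 from 5901983, and its 1 heads isoform used the former. The study, however, shows *Act5C* in heads as its example of a gene with alternative TSSs and no TSS bias. The 1 heads isoform of this assembly therefore does not show that heads lack the second site. The Drosophila actin genes are nearly identical in their coding parts, and how the authors' alignment divided reads among them is not given. Both *cic* sites and both *Act5C* sites were also used in embryos.

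The sequences around the sites differed between the classes. Motifs were searched from 150 nt upstream to 50 nt downstream of each TSS on both strands, and none of the motifs contains another. The DRE (TATCGATA), the element bound by Dref that is common at promoters of widely used genes, was found at 14.2% (13.3 to 15.1) of shared TSSs, 3.09% (2.35 to 4.06) of heads-only and 9.69% (6.49 to 14.2) of ovary-only TSSs, and at 11.9% of all. The core of Motif 1 (GGTCACAC), another motif of such promoters, was found at 13.4%, 2.4% (1.75 to 3.27) and 6.61% (4.05 to 10.6), and at 11% of all. Heads-only promoters thus held these motifs less often than shared ones, and ovary-only promoters lay between. The E-box CAGCTG followed the same order, with 19.6%, 13.6% and 18.5%, and 18.4% of all.

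GAGAG, the core of the GAGA element, ran the other way, with 25.2% of shared, 33.3% (31 to 35.7) of heads-only and 29.1% (23.6 to 35.3) of ovary-only TSSs, and 26.9% of all. The initiator core TCAGT, searched on the transcribed strand within 10 nt of the start, was at 10.8%, 16.8% (15 to 18.7) and 12.8% (9.04 to 17.7), and at 12% of all. TATAAA in the 50 nt upstream differed least, with 3.49%, 3.72% and 2.64%, and 3.51% of all. The intervals of ovary-only TSSs overlapped those of shared TSSs for the GAGA core, the initiator core, the TATA box, the E-box and the DRE. A match of letters is a description and does not show binding. DRE and Motif 1 matches (capitals) at named sites are shown because the DRE lies at the ovary start and not at the heads start of *Cp110* and *Dab*, while the heads start of *CycE* within *ND-B17* and a shared start of *mtd* hold Motif 1.
Cp110, ovary-only start, chrX:22482350-22482379, plus strand: aaaagtccggtTATCGATAtctgacgtcag
Dab, ovary-only start, chr3L:16713579-16713608, plus strand: tagacccggctTATCGATAagcgtctcaga
CycE, heads-only start, chr2L:15751075-15751104, minus strand: tttaagagtgcGGTCACACtggcggcaaca
mtd, shared start with 7 heads and 2 ovary isoforms, chr3R:5297497-5297526, minus strand: aaccgagctgcGGTCACACtgctggccaat

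**Figure D3:**
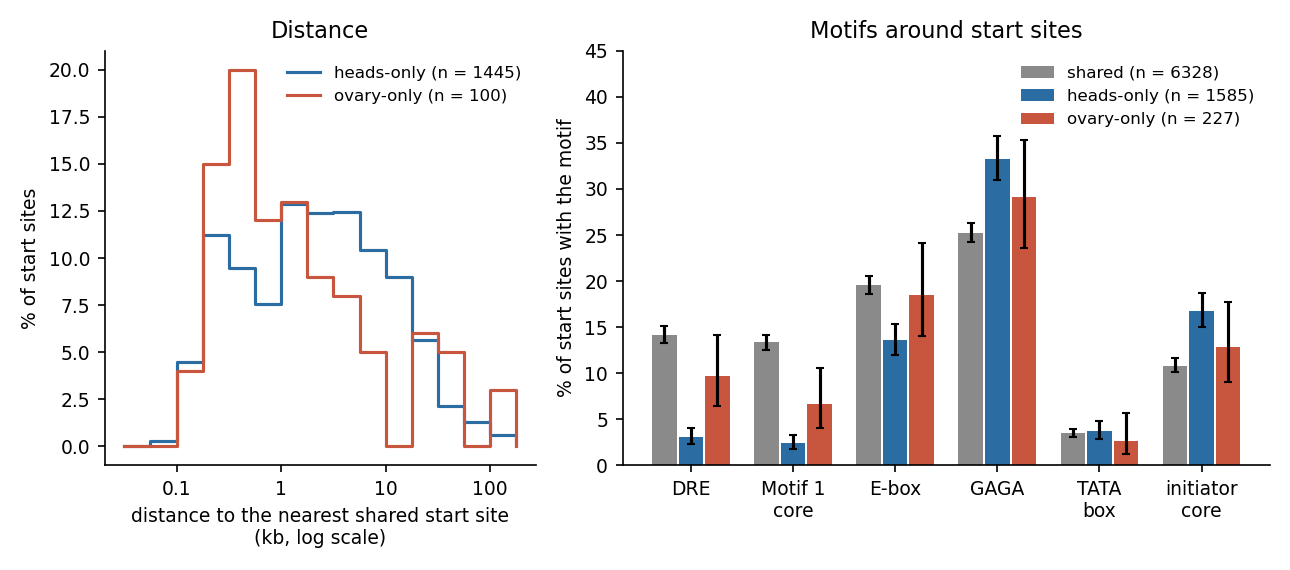
Left, distance of tissue-only TSSs from the nearest shared TSS of the gene (x axis, kb, log scale) as percent of sites. Right, percent of TSSs with each motif, with 95% Wilson intervals as error bars, where the DRE is at 14.2% of shared, 3.09% of heads-only and 9.69% of ovary-only TSSs.

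Whether the other tissue-only features of heads followed the promoter was described in 1100 genes with heads isoforms from both a heads-only and a shared TSS. Each isoform had equal weight, and a feature counted by its presence in an assembly. The study instead compared read numbers of start and end pairs between the tissues, and reports that tissue-enriched starts and 3′ ends are linked. The shares here do not measure that link. A heads-only poly(A) site was used by a mean of 31.8% of isoforms from heads-only TSSs and 31.4% of those from shared TSSs, with 364 genes higher from heads-only TSSs, 406 lower and 330 equal. Heads-only internal exons were in 34.1% and 27.7% of isoforms, and heads-only terminal exons in 37.3% and 42%. In the 96 genes of the reverse kind, an ovary-only poly(A) site was used by 16.9% of ovary isoforms from ovary-only TSSs and 14.1% from shared ones, with 14 genes higher, 16 lower and 66 equal. Ovary-only internal exons were in 8.33% and 2.41% of these isoforms, with 8 genes higher, 5 lower and 83 equal. Ovary-only terminal exons were in 17.4% and 16%, with 15 genes higher, 21 lower and 60 equal.

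In the whole assemblies, internal exons found in heads only were mostly other combinations of splice sites that both tissues used. Most of those found in ovaries only had an end that heads did not use. Heads had 47809 isoforms here and ovaries 12381, and the part of isoform number in this contrast was not tested. Of 9102 heads-only internal exons, 5995 (65.9%) had an acceptor and a donor that ovaries also used with other partners, 833 had only the acceptor and 801 only the donor in common, and 654 (7.19%) were cassette exons that ovary isoforms skipped. The remaining 819 were not spanned by an ovary intron. Heads-only exons were long, with a median of 765 nt against 230 nt for shared exons, and 6155 (67.6%) contained an intron that ovaries spliced out. Ovary-only internal exons numbered 420, of which 131 (31.2%) were combinations of known sites and 22 (5.24%) skipped cassettes, and 127 (30.2%) contained an intron that heads spliced out.

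The cassette exons had another make-up. Their median length in heads was 146 nt, and 50 of 654 (7.65%, 5.85 to 9.94) had 30 nt or less, against 0.342% of shared exons. Of the 381 that lay in annotated coding sequence, 281 (73.8%, 69.1 to 77.9) had a length that is a multiple of 3 and so kept the reading frame, against 37.1% of shared coding exons. Among the 14 coding cassette exons of ovaries 12 did. Heads-only exons with reused ends and a coding annotation, by contrast, were rare, with 12 of 5995.

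To compare how often an exon was included, isoforms that spanned it were counted in each tissue, with equal weight for each isoform, since no read numbers exist. A spanning isoform had the exon as an internal exon or had an intron that contained it whole. Other isoforms of the gene were left out, so isoform counts and shares given for an exon cover spanning isoforms only. In 2889 exons of 413 genes with 5 or more spanning isoforms in each tissue, 1740 (60.2%) were in every isoform of both. Inclusion was 50 points or more higher in heads for 38 exons of 26 genes and in ovaries for 31 exons of 23 genes. At 20 points or more these numbers were 150 and 116 exons. A complete switch, in all isoforms of 1 tissue and none of the other with 3 or more in each, was found in 1 of 6066 exons. It was a coding exon of 57 nt in *Gug*, the gene of the corepressor Atrophin, at 3L 8468867 to 8468923, which was in 6 of 6 heads isoforms and 0 of 6 ovary isoforms. With 2 isoforms per tissue, 6 of 10045 exons switched, 2 of them in *Gug* and 1 each in *Spn*, *Glut1*, *trol* and a gene without a symbol in the annotation used here. The *Glut1* and *trol* exons were in ovaries, the others in heads.

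The boundaries of the exon that switched completely and of 2 coding exons higher in ovaries, chosen after their values were seen, are printed to locate them, with exon bases in capitals and intron bases in lower case. All 3 exons have an AG before the acceptor and a GT after the donor.
Gug, acceptor of the 57-nt exon, chr3L:8468852-8468881, plus strand: tcgattcaatttcagTCCTGTTGAACAGAT
Gug, donor of the 57-nt exon, chr3L:8468909-8468938, plus strand: CATGTACAGAGAGAGgtacagtaccaaagc
Nedd4, acceptor of the 72-nt exon, chr3L:17542876-17542905, plus strand: tcatttcacttgtagCTTGATGTGGATCAT
Nedd4, donor of the 72-nt exon, chr3L:17542948-17542977, plus strand: CAACATCGGCCATCGgtcagcacattccca
Atpalpha, acceptor of the 81-nt exon, chr3R:20962200-20962229, plus strand: ccttcatgtgcgtagCATGGGAGGGCGGAC
Atpalpha, donor of the 81-nt exon, chr3R:20962281-20962310, plus strand: GATGGCCAGTACAAGgtaaatcgaattttc

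After *Gug*, the exons with the largest differences in favour of heads lay in 9 genes of varied roles. *unc-13*, whose product primes synaptic vesicles, had an exon of 5876 nt on chromosome 4 in 4 of 5 heads and 0 of 8 ovary isoforms. *Svil*, the gene of an actin-binding protein of the villin family, had one of 4045 nt in 11 of 14 and 0 of 5. *Patronin*, which protects microtubule minus ends, included 72 coding nt in 66 of 100 heads isoforms and 0 of 14 in ovaries. *SLO2* is a potassium channel gene and *CASK* a synaptic scaffold gene. They had exons in 61.2% and 60.1% of spanning heads isoforms and in 0 of 6 spanning ovary isoforms each. *Glut1*, a glucose transporter gene, had its 166-nt exon in 36 of 43 heads and 1 of 7 ovary isoforms. *chn*, a zinc-finger gene of neural development, had an exon in 8 of 9 and 1 of 6. The anion exchanger gene *Ae2* had an exon of 201 nt in 13 of 21 and 0 of 5, and *CG15312* one of 150 nt in 8 of 12 and 0 of 7.

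The exons with the largest differences in favour of ovaries lay in 10 genes, again of varied roles. *Mbs*, the targeting subunit of myosin phosphatase, carried a coding exon of 387 nt in 12 of 14 ovary isoforms (85.7%) and 5 of 139 heads isoforms (3.6%). In *Atpalpha*, the catalytic subunit of the sodium pump, the 81-nt exon was in 14 of 16 ovary and 44 of 277 heads isoforms. *Nedd4*, a ubiquitin ligase gene, had the 72-nt exon in 7 of 10 ovary isoforms and in 0 of 62 heads isoforms. *par-1*, a kinase of cell polarity, included its 89-nt exon in 19 of 19 ovary isoforms and 27 of 69 in heads. *Imp*, an RNA-binding protein gene, had a non-coding exon of 204 nt in 8 of 9 and 6 of 22, and *crol*, a zinc-finger gene, one of 770 nt in 6 of 6 and 2 of 9. *Spn*, the spinophilin gene, had 54 nt in 9 of 10 and 3 of 10, *mtd* 138 nt in 11 of 11 and 33 of 171, and *ewg*, a transcription factor gene of neurons and muscle, 74 nt in 3 of 5 and 0 of 12. *Galphaq* had a coding exon of 108 nt in 7 of 7 and 10 of 40.

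In several of these genes more than 1 exon moved, and the following were chosen after their values were seen. *Galphaq* encodes the G protein subunit that couples rhodopsin to phospholipase C. Its exons of 129 nt at 2R 12617072 to 12617200 and of 108 nt at 12618443 to 12618550 were in all 7 ovary isoforms and in 17 of 60 and 10 of 40 heads isoforms. The neighbouring exons of the same lengths, at 12617456 to 12617584 and 12618204 to 12618311, were in 0 of 7 ovary isoforms and in 41 of 59 and 22 of 40 heads isoforms. Ovaries thus had 1 version of either pair and heads had both. *Aldh-III*, an aldehyde dehydrogenase gene, held a like pair of 116 nt each, with the exon at 2R 7468422 to 7468537 in 29 of 40 heads and 1 of 7 ovary isoforms and that at 7469110 to 7469225 in 12 of 40 and 6 of 7. In *Nedd4*, 4 exons differed by 50 points or more, and ovaries had more of the exons of 72, 185 and 262 nt and heads more of one of 212 nt. *Glut1* had 5 such exons, all higher in heads. *Patronin* had a 105-nt exon at 2R 17529087 to 17529191 in 14 of 14 ovary and 53 of 109 heads isoforms, and one of 153 nt at 17529982 to 17530134 in 0 of 14 and 65 of 109.

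**Figure D4:**
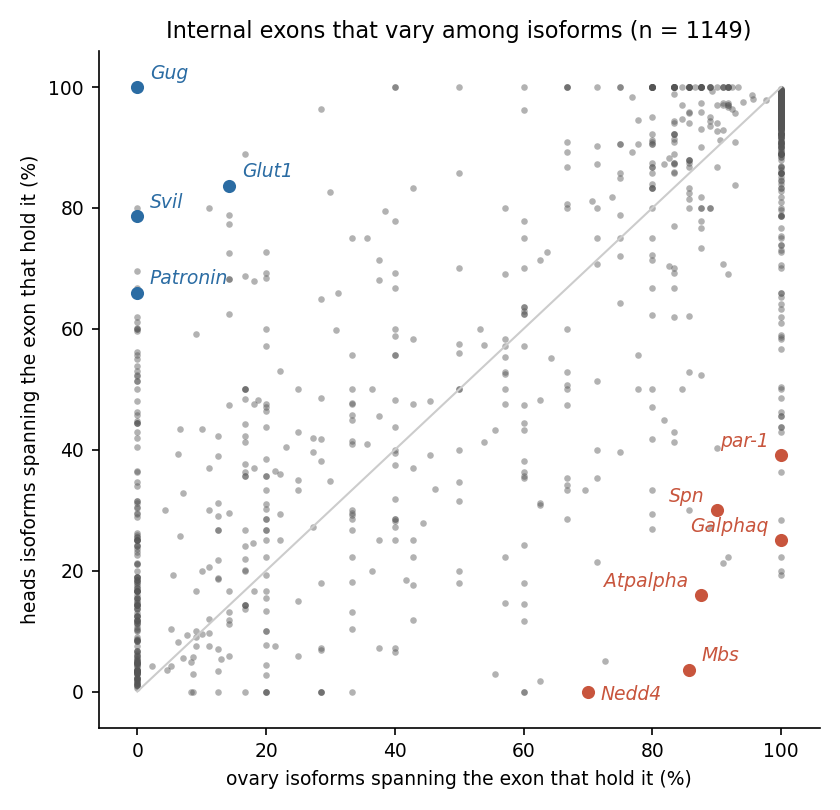
Inclusion of 1149 internal exons that vary among isoforms, as percent of spanning isoforms that hold the exon in ovaries (x axis) and heads (y axis), each point 1 exon with 5 or more spanning isoforms per tissue. Named exons in blue are higher in heads and those in red higher in ovaries, such as Mbs with 3.6% in heads and 85.7% in ovaries.

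Short exons leaned towards heads. Of 29 varying exons of 30 nt or less, 21 had higher inclusion in heads and 8 in ovaries, while of 1120 longer ones 457 were higher and 655 lower in heads. The largest differences were in *Ptp10D*, a receptor tyrosine phosphatase gene of axon guidance, whose 18-nt exon was in 4 of 9 heads and 0 of 7 ovary isoforms, and in *Moe*, the gene of the actin linker moesin, whose 27-nt exon was in 27 of 74 and 0 of 12. In the other direction *SERCA*, the calcium pump of the endoplasmic reticulum, had its 18-nt exon in 5 of 6 ovary and 43 of 104 heads isoforms. These 3 were chosen after their values were seen. *Sxl*, the switch gene of female development, differed as well. Its exon of 190 nt at X 7088578 to 7088767 was in 20 of 83 heads isoforms and 0 of 21 ovary isoforms. Heads came from both sexes and ovaries from females, so that tissue and sex cannot be told apart here.

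Introns were the class in which drawn heads and ovaries differed most unevenly, and they were sorted by what the other tissue had at the same place. Where isoforms of the other tissue differed there, one that spanned the place with other splicing counted before one that kept the intron. Introns given in this sorting as lying within an exon thus had no such spliced isoform in the other tissue. Of the 4137 ovary-only introns in a median draw, 1577 (1492 to 1661, 38.1%, in 1256 genes) lay whole within an exon of a heads isoform, and 1768 (42.7%) were replaced by other splice sites. Of 2479 heads-only introns, 69 (57 to 83, 2.79%) lay within an ovary exon and 1590 (64.4%) were replaced by other splice sites. The kept introns were short, with a median of 71 nt. In the whole assemblies, where another heads isoform mostly spliced the same intron, 68 ovary-only introns in 54 genes lay within a heads exon and 172 heads-only introns in 137 genes lay within an ovary exon.

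Isoforms that kept an intron spliced elsewhere in the gene made up 47.4% (46.9 to 47.8) of heads isoforms and 15.8% (15.2 to 16.5) of ovary isoforms. The difference was present among isoforms of 3 kb or more, with 53.5% (52.9 to 54.1) and 22.6% (21.5 to 23.8), and among shorter ones, with 36.1% and 10.5%. In the 1108 genes with 3 or more isoforms in each tissue the mean of the gene shares was 47.9% in heads and 23.8% in ovaries, and heads were higher in 923 genes (83.3%), ovaries in 119. Depth and library number moved in the same direction, and their part in this was not tested. A gene with more isoforms also has more introns that count as spliced elsewhere.

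Introns spliced only in ovaries and kept by every spanning heads isoform were mostly seen in few isoforms. The clearest was in *smg*, which encodes Smaug, a repressor of maternal mRNAs. Its intron of 915 nt at 3L 8991538 to 8992452 was spliced in 18 and kept in 2 ovary isoforms, and was kept in all 3 heads isoforms that covered it. A second *smg* intron of 64 nt at 8991158 to 8991221 was spliced in 6 and kept in 17 ovary isoforms and kept in 3 in heads. *Mi-2*, a chromatin remodelling ATPase gene, had one of 67 nt spliced in 2 and kept in 5 ovary isoforms, against 5 kept in heads, and *slpr*, a kinase gene of the JNK pathway, one of 199 nt spliced in 3 and kept in 3, against 5 kept.

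Introns spliced only in heads and kept in every ovary isoform that covered them included those of *cg*, a zinc-finger gene, with 192 nt spliced in 9 and kept in 36 heads isoforms and kept in 23 in ovaries. *Hcf*, the host cell factor gene, had one of 54 nt spliced in 2 and kept in 21 heads isoforms, against 9 kept in ovaries, *Trf2*, a TBP-related factor gene, one of 66 nt spliced in 2 and kept in 12, against 6 kept, and *Crk*, an adaptor gene, one of 75 nt spliced in 5 and kept in 27, against 5 kept. For *Pur-alpha*, a nucleic acid-binding protein gene, heads spliced 48 nt in 27 isoforms and kept them in 18, against 4 kept in ovaries. These intron examples were chosen after their values were seen.

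**Figure D5:**
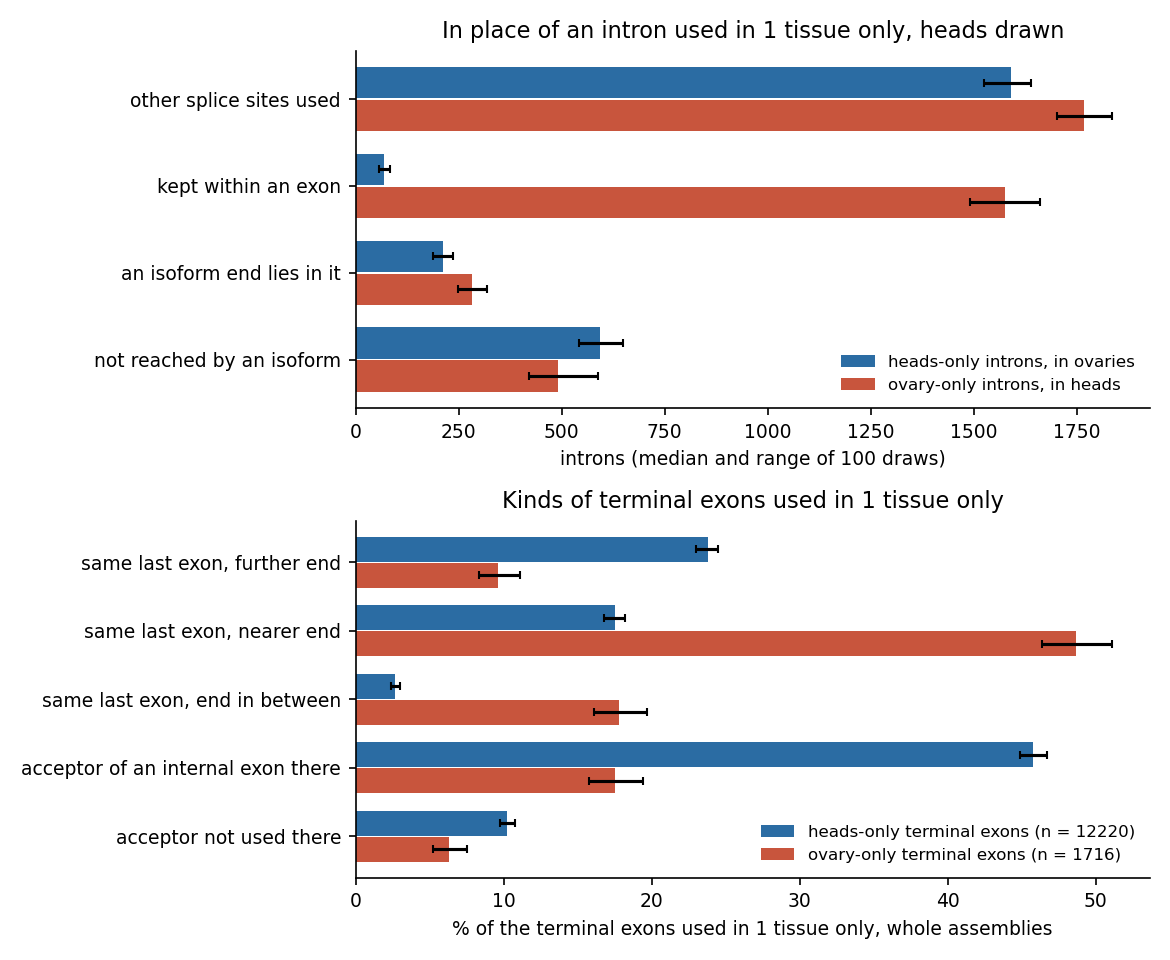
Top, number of introns used in 1 tissue only in a draw (x axis, median with range over 100 draws) by what the other tissue had there. Other splice sites counted before keeping, and 1577 ovary-only introns were kept within a heads exon against 69 heads-only introns within an ovary exon. Bottom, kinds of terminal exons used in 1 tissue only (x axis, percent, with 95% Wilson intervals) in the whole assemblies.

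Terminal exons were compared by their acceptor and their 3′ end. Their kinds were taken from the whole assemblies, where heads had more isoforms, and the part of isoform number in them was not tested. Among 12220 heads-only terminal exons, 5597 (45.8%) began at an acceptor that ovaries used for internal exons only, 2905 (23.8%, 23 to 24.5) shared the last exon and ended beyond all ovary ends, 2139 (17.5%) ended before them, and 1252 (10.2%) used an acceptor not found in ovaries. Ovary-only terminal exons were of another kind. Of 1716, 836 (48.7%, 46.4 to 51.1) ended before all heads ends of the same last exon, 165 (9.62%, 8.31 to 11.1) beyond them, and 108 had their own acceptor. No gene of 1102 with 3 or more spliced isoforms in each tissue lacked a common terminal acceptor. With 2 isoforms per tissue 3 of 2029 did, namely *Aduk* (9 heads and 2 ovary isoforms), *nito* (3 and 2) and *CG7168* (2 and 2).

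In 5786 genes with a common last exon, the most distal 3′ end lay more than 150 nt further in drawn heads in 988 genes (17.1%) and further in ovaries in 379 (6.55%). Shifts over 1 kb numbered 355 and 36. Against all heads isoforms the counts were 1623 (28.1%) and 131 (2.26%). Long shifts in heads were found in the non-coding RNA CR42862 (5354 nt, 1 isoform in the last exon of either tissue), *ps*, the splicing regulator pasilla (5274 nt, 211 and 3), *drpr*, the engulfment receptor of glia (5066 nt, 18 and 5), and *UQCR-11*, a subunit of respiratory complex III (5010 nt, 8 and 3). *Gprk1*, *mub*, *galectin*, *CG32816* and *nonA* followed, with 4712 to 4068 nt. With heads drawn, *ps* kept a median of 1101 nt, *mub* 2847 nt, *nonA* 1069 nt and *CG32816* the whole shift, while CR42862, *drpr*, *Gprk1* and *galectin* had a median of 0 and *UQCR-11* of -289 nt. These last 5 shifts therefore rested on few of the heads isoforms. Ovaries reached further, as heads minus ovaries, in *mgl*, the megalin gene (-3331 nt, 1 ovary and 2 heads isoforms), *dmpd* (-1930 nt), *SoYb*, a Tudor protein gene of the piRNA pathway (-1396 nt, 6 ovary isoforms and 1 in heads), *CG44774* (-1289 nt) and *Pep* (-1243 nt).

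The hexamer AATAAA, the main signal for cleavage, was within 40 nt before the end at 45.8% (44.6 to 47.1) of shared poly(A) sites, 21.5% (20.6 to 22.5) of heads-only sites and 22.9% (20.8 to 25.1) of ovary-only sites. Of all sites in the 3 classes, with or without the hexamer, 81.4%, 17.8% and 32.4% were annotated. Among annotated sites the shares with AATAAA were 50.1%, 40.7% and 37.7%, and among the others 27.2%, 17.4% and 15.8%. The last 30 bases at the distal ends of 3 named genes are shown because the signal is not at all of them. Capitals mark AATAAA or the variant ATTAAA. In these bases the heads ends of *ps* and *mub* hold neither and run into a stretch of A, while that of *CG32816* holds the variant. The study likens A-rich sequence at the 3′ ends it discarded to priming within the RNA. Whether the ends of *ps* and *mub* arose in this way was not tested.
ps, heads distal end, chr3R:9454713-9454742, plus strand: agaggtatagatttgaacaaaaaaaaaaaa
mub, heads distal end, chr3L:21930900-21930929, plus strand: gttatttaagatactccacagtaaaaaaaa
CG32816, heads distal end, chrX:312127-312156, minus strand: ttttcatattgATTAAAaatttaaattcaa
CG32816, ovary distal end, chrX:316374-316403, minus strand: atacAATAAAaaggaatatgcttacccaaa

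Gene groups were then described against the background of all shared genes. Among 35 RNA-binding and splicing regulators, 15 (42.9%) had a heads-only TSS in 50% or more of the draws and 5 an ovary-only TSS, beside 14.2% and 12.8% of all genes, and 30 (85.7%) had a heads-only and 30 an ovary-only terminal exon, beside 45.1% and 39.9%. These genes had medians of 24 isoforms in heads and 5 in ovaries, against 3 and 1 in all genes, and the part of isoform number in the counts was not tested. *heph*, the polypyrimidine tract-binding protein gene (43 heads and 23 ovary isoforms), and *shep*, an RNA-binding protein gene of neurons (223 and 18), had a heads-only TSS in every draw, as did *mub* (135 and 16) and *Imp* (35 and 15). The drawn ovary-only TSS share of the 35 (14.3%) lay near the 12.8% of all genes. In the whole assemblies none of the 35 had an ovary-only TSS, against 6.67% of all genes. The same held for the 30 signalling genes and the 21 genes of membrane transport described below, so it was not particular to this list.

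Of 29 transcription and chromatin factors, 7 (24.1%) had a heads-only and 9 (31%) an ovary-only TSS in 50% or more of the draws, beside 14.2% and 12.8% of all genes. In the whole assemblies the order was reversed, with 7 (24.1%) and 4 (13.8%), beside 22.9% and 6.67% of all genes. The 4 genes were *psq* (1 of 19 isoforms), *cic*, *br* and *CrebB*. Of 32 genes of the cytoskeleton and cell polarity, 10 (31.2%) had a heads-only and 5 (15.6%) an ovary-only TSS. For 30 signalling genes these were 8 (26.7%) and 5 (16.7%), for 21 genes of membrane transport 7 (33.3%) and 3 (14.3%), and for 17 genes of vesicle traffic 3 (17.6%) and 3 (17.6%). The ovary-only shares of these 4 lists lay near the 12.8% of all genes. These lists also had more isoforms per gene than the background, with heads medians of 9 to 23.

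Of 23 genes of the germline and maternal mRNA control, 8 (34.8%) had a heads-only and 2 (8.7%) an ovary-only TSS (*exu*, and *png* with 1 unspliced isoform), beside 14.2% and 12.8% of all genes, and 16 (69.6%) an ovary-only terminal exon, beside 39.9%. Their medians were 4 isoforms in heads and 3 in ovaries. With heads drawn, 10 (43.5%) had an ovary-only internal exon, beside 34.6% of all genes, and 9 (39.1%) a heads-only one, beside 27.5%. In the whole assemblies 7 of 23 (30.4%) had an ovary-only internal exon, against 4.6% of all genes. The part of the few heads isoforms of these genes in this was not tested. Among the 7 were *smg* (5 exons with 4 heads and 24 ovary isoforms), *piwi* (3 exons, 1 and 3 isoforms), *osk* (2 exons, 2 and 5 isoforms) and *tral* (2 exons, 38 and 42 isoforms). The 77 cytoplasmic ribosomal protein genes stood at the other end, since 2 (2.6%) had a heads-only and 1 (1.3%) an ovary-only TSS, beside 14.2% and 12.8% of all genes, although their medians of 6 and 2 isoforms were above the background. A heads-only terminal exon occurred in 50 of the 77 (64.9%) and an ovary-only one in 39 (50.6%), beside 45.1% and 39.9% of all genes. Among 12 genes that the study names as examples, chosen by it on these samples and so not independent, 6 (50%) had a heads-only and 4 (33.3%) an ovary-only TSS, beside the same 14.2% and 12.8%.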

How the data were processed

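Full-length cDNA of polyadenylated RNA from heads and ovaries was read on nanopore devices. The authors merged the replicates of a tissue, mapped reads to dm6 (named in the submitters' processing notes) with minimap2, corrected splice sites with short-read junctions, built isoforms with FLAIR and kept those with promoter-supported 5′ ends and a minimum of full-length reads. No source used here says if their 3′ end filter was applied. Values in the deposited assemblies were positions on the genome, with no count, level or depth per library, so precision could not be computed.

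Groups were taken from the labels. Sites of both assemblies in a gene and strand were joined by single linkage (10 nt for splice sites, 50 nt for 5′ ends, 150 nt for 3′ ends), and a feature is a combination of joined sites. Heads isoforms were drawn without replacement, 100 times with a fixed seed. No test was run. Positions were compared with Ensembl release 115, and sequences were read from the RefSeq copy of dm6, whose chromosome names and lengths include all positions in the files. Python 3.11.15, numpy 2.4.6, pandas 2.3.3, scipy 1.17.1 and matplotlib 3.10.9 were used. The comparison was tried on a copy of the heads assembly in which shifted starts and removed internal exons had been planted. Alternatives changed the draw, the tolerances, the matching, the gene ID, the annotation, the isoform minimum, the isoform length and unspliced isoforms.

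Named were the genes without a common TSS or terminal acceptor, genes with tissue-only TSSs of both kinds, and list members. These were ordered by isoforms in the tissue with fewer. Also named were exons with the largest inclusion differences and large shifts of distal 3′ ends. Their order was by the size of the difference or shift, so they were picked by their values. Among the shifts of distal ends that this rule names, 1 gene and 1 sequence are not reported here, so the list is not complete. Other names are said to be chosen after their values were seen. The genes and lists were chosen with earlier results of these data known.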

Additional observations from a re-analysis of the deposited data

How the results depend on the processing

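Of 127 alternatives, 101 kept their value within 1.5 times and 26 moved. Against the whole heads assembly, genes with heads-only and ovary-only features numbered 1456 and 423 for TSSs, 2704 and 388 for first exons, 2770 and 292 for internal exons and 2064 and 431 for introns, and 1365 had an ovary-only terminal exon. With annotated features only, 1443 and 1716 genes had heads-only and ovary-only terminal exons. With isoforms of 3 kb or more only, a setting chosen after seeing the data that leaves fewer genes, the numbers were 326 and 274 (TSSs), 604 and 584 (first exons), 966 and 928 (internal exons), 665 and 1103 (introns) and 1199 and 1089 (terminal exons), and 0 genes had no common TSS. Genes without a common TSS numbered 17 with 2 isoforms or more per tissue and 1 with 5 or more, genes without a common terminal acceptor 3 and exon switches 6 with 2 or more. Spliced isoforms only were also chosen after seeing the data. Without counts, depth limits every statement that a feature was not found in a tissue. No paired analysis was possible because the replicates were pooled before deposit, and no replicate could be left out for the same reason.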
